A study of Mus musculus with 2 samples.

Results

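Aquaporins and urea transporters move water and urea across the kidney tubule, and the vasopressin V2 receptor sets how much water the last segment takes back. The 10 genes described here were the entries of the deposited count table with the symbols Aqp1, Aqp2, Aqp3, Aqp4, Aqp6, Aqp7, Aqp11, Slc14a1, Slc14a2 and Avpr2, and all 10 were found among 45777 genes. The libraries came from whole kidneys, 1 from mice with a conditional knockout (CKO) of Inmt directed at the proximal tubule and 1 from control mice, all on standard chow and untreated. Per the labels, neither the Cre driver, the genotype of the controls, the strain, age and sex of the mice nor the number of animals per library is stated. The comparison asks how expression in the whole kidney differs when the enzyme gene Inmt is deleted in proximal tubule cells.

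Water leaves the filtrate through aquaporin channels, first in the proximal tubule and the descending thin limb, where AQP1 is always in the membrane, and last in the collecting duct. There the hormone vasopressin binds the V2 receptor on principal cells, cAMP rises, protein kinase A is activated, and vesicles that carry AQP2 fuse with the apical membrane. Water then leaves the cell on the blood side through AQP3 and AQP4. Urea transporters let urea recycle between the collecting duct, the thin limbs and the vasa recta, which helps to keep the inner medulla salty enough to draw water out.

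The promoters of Aqp2 and Aqp3 are shown because both channels work in the same principal cell while their transcripts differed unequally between the libraries. RefSeq promoter sequences of GRCm38.p6 were used for 7 of the 10 genes, and the 250 bases before the transcript start of that table, which for Aqp2 and Aqp3 is the start of the gene, were searched on both strands for 3 motifs that do not overlap each other here. Capitals mark the cAMP response element core TGACG, the GATA motif AGATAA and the TATA box core TATAA, each read on either strand. The Aqp2 stretch lies on the plus strand at chr15:99578806-99579055, and the Aqp3 stretch lies on the minus strand at chr4:41098184-41098433, written 5′ to 3′ along the gene.
Aqp2: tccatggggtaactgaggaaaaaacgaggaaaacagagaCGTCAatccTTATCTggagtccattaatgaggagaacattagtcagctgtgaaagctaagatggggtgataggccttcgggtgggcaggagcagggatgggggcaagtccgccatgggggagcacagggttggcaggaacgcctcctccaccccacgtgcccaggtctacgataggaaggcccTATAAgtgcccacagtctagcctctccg
Aqp3: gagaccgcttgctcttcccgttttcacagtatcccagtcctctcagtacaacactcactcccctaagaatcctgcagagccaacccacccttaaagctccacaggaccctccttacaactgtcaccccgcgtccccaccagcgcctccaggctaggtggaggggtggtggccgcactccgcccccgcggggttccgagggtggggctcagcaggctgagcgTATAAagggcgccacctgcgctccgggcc
The Aqp2 stretch held the cAMP response element core at bases -211 to -207 and the GATA motif at -202 to -197, both on the strand opposite to the gene, and TATAA at -28 to -24. The Aqp3 stretch held TATAA at -29 to -25 and no match to the other motifs. Of the other genes searched, Aqp7 held AGATAA at -132 to -127 and Avpr2 held TATAA at -44 to -40 on the opposite strand. For both, the transcript start used lies inside the span of the gene. The Avpr2 stretch begins at 73891852, past the gene start at 73891765, so its match lies within the gene. The rest, Aqp6 among them, held none of the 3 motifs. Over all 32851 promoter stretches of this length, 17.8% held TGACG, 9.99% held AGATAA and 22.8% held TATAA. These matches describe letters in the window and were not tested as binding sites.

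The CKO library held 38136616 counted reads and the control library 33618076. Mitochondrial transcripts took 10.8% of reads in the CKO library and 14.4% in the control library. Levels are given as CPM, read counts scaled to library size with TMM factors, which balance the bulk of genes between the libraries. With 1 library a group there is no replicate check and no p-value. Intervals, at 95%, cover counting error only and compare these libraries, not the genotypes. They are exact, except those of quotients of read ratios, which are normal on the log scale. The knocked-out gene itself had 5283 reads in the CKO library and 17678 in the control library, 4.73-fold lower (4.59 to 4.88). Tubular injury markers stood far apart, with 10 of 11 at least 2-fold higher in the CKO library and summed levels of 5578 CPM in the CKO library and 591 CPM in the control library. Among them Lcn2, the gene of a secreted injury protein, was 79.8-fold higher, and Spp1, which encodes osteopontin and had most reads, was 12.3-fold higher. Proximal tubule markers had a summed level of 13548 CPM in the CKO library and 22961 CPM in the control library, with 9 of 10 below 0 on the log2 scale. In whole-kidney RNA, fewer cells of a type and less RNA per cell cannot be told apart.

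Of the 10 genes, 8 were higher and 2 lower in the CKO library, while 7673 of all 15129 expressed genes were higher. The 8 include Aqp4, whose ratio had an interval that included 1. A log2 ratio of CKO over control, taken on CPM + 0.5, ranged among them from -0.69 for Aqp11 to 1.16 for Aqp6, with Slc14a2 beyond that because it had no read in the control library. Aqp2, Aqp6 and Slc14a2 were at least 2-fold higher on this scale, which is 3 of 10 genes, where 10.3% of all 15129 expressed genes (at least 1 CPM in CKO, control or both) were. None was at least 2-fold lower, where 1.66% of all expressed genes were. Over all expressed genes that is 1552 higher and 251 lower, which became 2416 and 87 with the authors' TPM, a scale that shifts the median of all genes. At a limit of 1.5-fold the counts were 4 higher and 1 lower, against backgrounds of 19.3% and 6.85%. The median log2 ratio of the 10 genes was 0.39, and that of all expressed genes was 0.01.

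**Figure D1:**
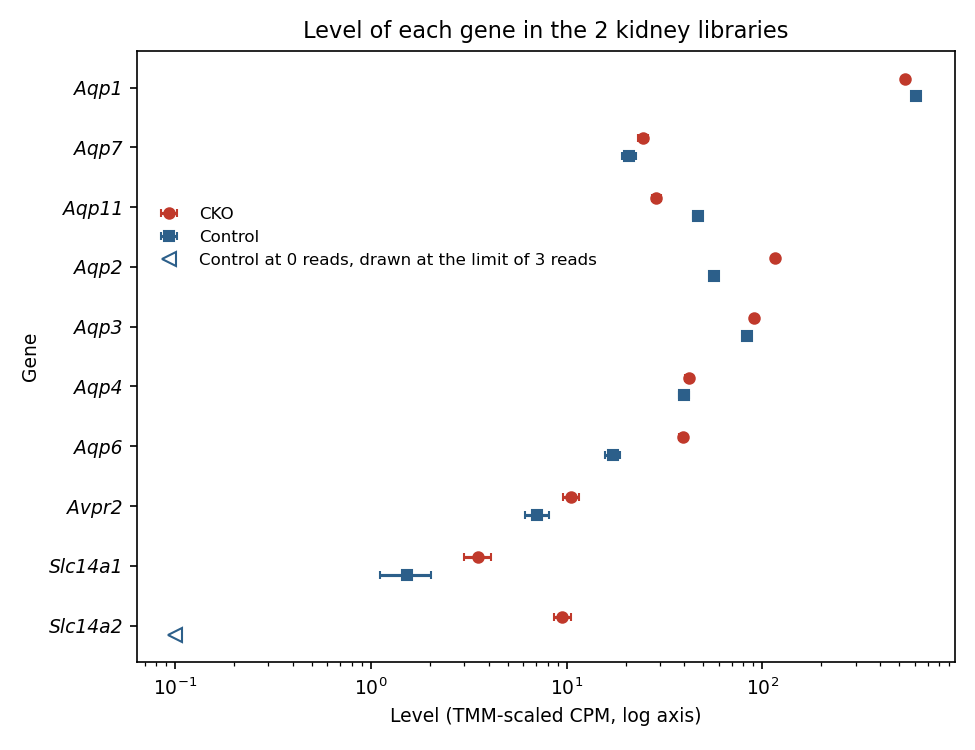
Level of each gene in TMM-scaled CPM on a log axis, with circles for the CKO library, squares for the control library and bars for exact Poisson 95% intervals. The 2 symbols lie close together for Aqp3 and Aqp4 and well apart for Aqp2, Aqp6 and Aqp11, and the open triangle marks the 0.0996 CPM that 3 reads would give for Slc14a2 in the control library.

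The water channels of the proximal tubule did not follow each other. Aqp1 (NCBI gene 11826) encodes the constitutive water channel of the proximal tubule and thin limb, and its gene spans chromosome 6, 55336299 to 55348555. It had 22703 reads in the CKO library and 18405 in the control library, or 533 CPM (526 to 540) and 611 CPM (602 to 620). The level was thus slightly lower in the CKO library, 1.15-fold (1.12 to 1.17), a direction that turned to a log2 ratio of 0.12 with total counts, 0.22 with TPM and 0.12 with FPKM in place of -0.20. These scales also raise the ratio of genes in general, and relative to the median of all expressed genes Aqp1 stayed below 0 in all 11 alternatives, between -0.26 and -0.12. Several alternatives rescale the same counts by a constant for each library. Subtracting the median largely removes such a constant, so the alternatives are not separate checks. With total counts the median of all expressed genes was itself 0.32, and with FPKM 0.28. Aqp1 lies 161 kb from Inmt on the same chromosome.

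Aqp7, an aquaglyceroporin that carries water and glycerol across the brush border of the late (S3) proximal tubule, lies on chromosome 4 at 41033074 to 41048237. It had 1047 reads in the CKO library and 628 in the control library. That is 24.6 CPM (23.1 to 26.1) against 20.9 CPM (19.3 to 22.6), a ratio of 1.18 (1.07 to 1.30). Fat cells also make Aqp7, and their defining genes Adipoq, Plin1, Lep, Retn and Cfd had 0 reads in both libraries. The sixth adipocyte marker, Cidec, had 17 reads in the CKO library and 6 in the control library.

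Aqp11, an aquaporin of intracellular membranes whose loss gives mice cystic kidneys, was the gene with the lowest ratio. It lies on chromosome 7 at 97726379 to 97738247 and had 1225 reads in the CKO library and 1410 in the control library. Its level was 28.8 CPM (27.2 to 30.4) in the CKO library and 46.8 CPM (44.4 to 49.3) in the control library, 1.63-fold lower (1.51 to 1.76). Only 4.53% of expressed genes had a lower log2 ratio than Aqp11. The sign held in all 9 alternatives, from -0.71 to -0.28.

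Set against the markers of their segment, Aqp11 lay beside the proximal tubule median and Aqp1 and Aqp7 stood higher. The 10 proximal tubule markers ran from -1.18 for the inositol oxygenase gene Miox to 0.26 for the lactate transporter gene Slc5a12, with a median of -0.72. Aqp11 lay 0.02 above that median, while Aqp1 and Aqp7 each exceeded 9 of the 10 markers. The most abundant of these markers by mean level, the phosphate transporter gene Slc34a1, was 1.90-fold lower, and Slc22a6, an organic anion transporter, was 2.24-fold lower. Against the 6 markers of the S3 segment, which ran from -1.86 for Slc22a7 to -0.83 for Cyp7b1, all of Aqp1, Aqp7 and Aqp11 were higher. S3 markers summed to 3735 CPM in the CKO library and 8273 CPM in the control library, and 5 of 6 were at least 2-fold lower. Acy3 was 2.54-fold lower and Atp11a, the most abundant, 2.04-fold lower. Aqp1 is also made in the thin limb and in endothelium, where it was below all 4 expressed thin limb markers and above 1 of 7 endothelial markers, whose values are given with the urea transporters.

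Ratios of reads within a library need no scaling between libraries. Their quotients equal those of the CPM ratios, because the scaling cancels, so they restate the order and are no separate check. Per read of Aqp1 there were 0.0461 reads of Aqp7 in the CKO library and 0.0341 in the control library, a 1.35-fold difference (1.22 to 1.49). Aqp11 had 0.0540 reads per read of Aqp1 in the CKO library and 0.0766 in the control library, a quotient of 0.704 (0.651 to 0.762). Aqp1 per read of Lrp2, the megalin gene, was 0.220 in the CKO library and 0.171 in the control library, 1.29-fold higher (1.26 to 1.31).

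**Figure D2:**
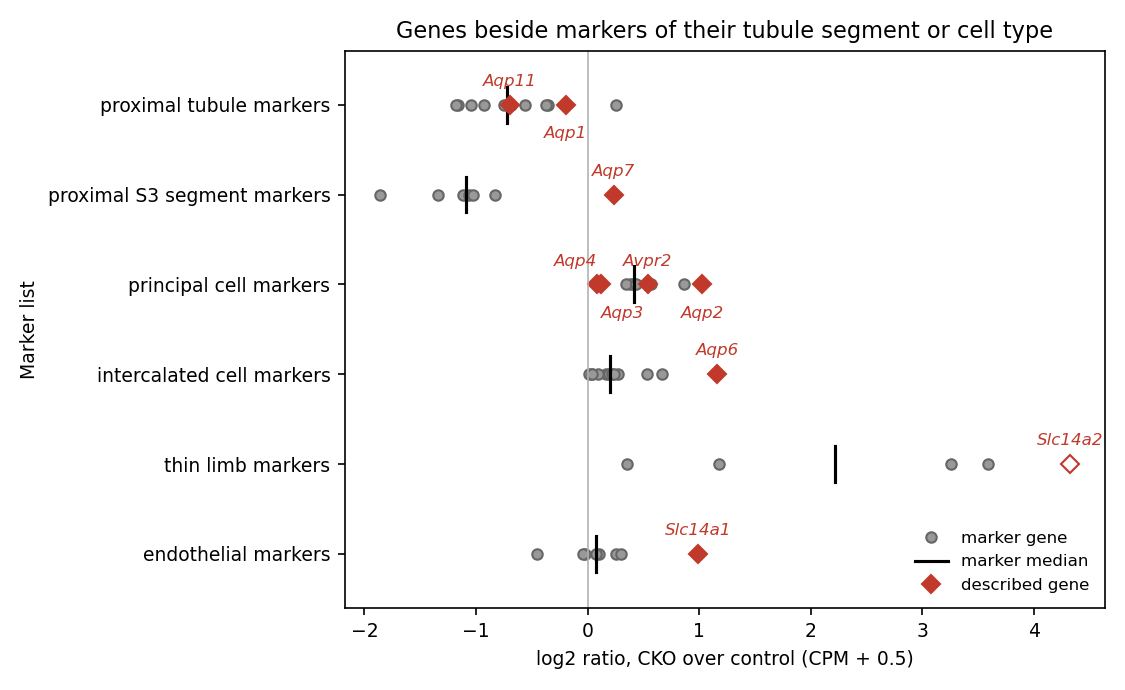
Log2 ratio of CKO over control for each gene (diamonds) on the line of the markers of a tubule segment or cell type that makes it (grey circles, with their median as a black bar). Aqp2 and Aqp6 lie right of all their markers, Aqp3 and Aqp4 left of theirs, and the open diamond of Slc14a2 is a fitted value that depends on the added 0.5 CPM because its control count is 0.

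Of the channel genes of the collecting duct, that of the apical side differed and those of the blood side hardly did. Aqp2, the apical channel of principal cells, is on chromosome 15 at 99579056 to 99584545. It had 4952 reads in the CKO library and 1710 in the control library, or 116 CPM (113 to 120) and 56.8 CPM (54.1 to 59.5), which is 2.05-fold higher (1.94 to 2.16). Its log2 ratio of 1.03 exceeded that of 90.1% of expressed genes and stayed above 1 in all 9 alternatives, with a lowest value of 1.01. Relative to the median of all expressed genes it ran from 0.96 to 1.10.

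Aqp3, which passes water and glycerol through the basolateral membrane of the same cells, had 3857 reads in the CKO library and 2509 in the control library. Its level was 90.6 CPM (87.7 to 93.5) in the CKO library and 83.3 CPM (80.1 to 86.7) in the control library, a ratio of 1.09 (1.03 to 1.14). Aqp3 lies on chromosome 4 at 41092724 to 41098183, 44.5 kb from Aqp7. The intervals of its levels did not overlap, and no replicate gives the spread between mice that so small a difference would have to exceed.

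Aqp4, the other basolateral water channel, had 1798 reads in the CKO library and 1197 in the control library. The levels of 42.2 CPM (40.3 to 44.2) and 39.8 CPM (37.5 to 42.1) overlapped within counting error, and the ratio of 1.06 had an interval that included 1 (0.987 to 1.14). Scaling by TPM gave log2 ratios of 0.50 for Aqp4 and 0.54 for Aqp3, but relative to the median of all expressed genes neither exceeded 0.20 in any of 11 alternatives. Skeletal muscle, which also makes Aqp4, left almost no trace in either library. Its markers Ckm, Myh4, Myh1 and Mb had 0 reads in both, and Acta1 had 6 reads in the CKO library and 0 in the control library.

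The ratio of Aqp2 to its partners therefore differed between the libraries. There were 1.28 Aqp2 reads per Aqp3 read in the CKO library and 0.682 in the control library, 1.88-fold higher (1.75 to 2.03). Against Aqp4 the quotient was 1.93 (1.76 to 2.11). Aqp4 per Aqp3 read was 0.466 in the CKO library and 0.477 in the control library, a quotient of 0.977 with an interval that included 1 (0.894 to 1.07).

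Markers of principal cells were higher as well, all 6 of them, by 0.35 to 0.86 on the log2 scale with a median of 0.42. Their summed level was 581 CPM in the CKO library and 425 CPM in the control library. The sodium channel subunit gene Scnn1b was highest among them at 0.86, Fxyd4, a regulator of the sodium pump, had 0.57, and the matrix protein gene Npnt, the most abundant, had 0.43. Aqp2 exceeded all 6 markers, whereas Aqp3 and Aqp4 were below all 6. These are whole-kidney values, and the part of other cell types in the Aqp3 and Aqp4 values was not tested. Against Scnn1b alone, Aqp2 was 1.12-fold higher per read (1.03 to 1.22), and against Scnn1g, another subunit gene of the same channel, it was 1.57-fold higher (1.43 to 1.73). The part of principal cell number in the Aqp2 difference was not tested, nor was that of the share of inner medulla in each kidney sample.

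Avpr2, the gene of the V2 receptor that starts the cAMP response, is on chromosome X at 73891765 to 73894428. It had 448 reads in the CKO library and 213 in the control library. The levels were 10.5 CPM (9.57 to 11.5) and 7.07 CPM (6.16 to 8.09), a ratio of 1.49 (1.26 to 1.76). Its log2 ratio of 0.54 lay within the range of the principal cell markers and near the median of 0.55 of 7 thick ascending limb markers, another place where the receptor is made. Those markers summed to 3742 CPM in the CKO library and 3181 CPM in the control library.

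The Avpr2 count has a limit of its own. Arhgap4, a gene on the opposite strand, covers 81.3% of the 2886 exonic bases of Avpr2 in the GENCODE M21 annotation of GRCm38. It had 455 reads in the CKO library and 168 in the control library, with a log2 ratio of 0.88. The kit marks strand per the labels' protocols, but whether counting used it is not given in the sources used here, so reads of these 2 genes may not be separated.

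Aqp6, an anion-permeable aquaporin of vesicles in acid-secreting intercalated cells, had the highest log2 ratio on CPM + 0.5 of the 9 genes with reads in both libraries, at 1.16, while its plain ratio was just below that of Slc14a1. It lies on chromosome 15 at 99598468 to 99605478, in a row with Aqp2 and Aqp5, and had 1670 reads in the CKO library and 519 in the control library. Its level was 39.2 CPM (37.4 to 41.1) in the CKO library and 17.2 CPM (15.8 to 18.8) in the control library, 2.28-fold higher (2.06 to 2.52). All 12 intercalated cell markers were above 0 too, but only by 0.01 to 0.67, with a median of 0.20 and a summed level of 505 CPM in the CKO library against 421 CPM in the control library. Slc4a9, a bicarbonate transporter gene, led these markers at 0.67, followed by the proton pump subunit gene Atp6v0d2 at 0.53. Atp6v1b1, another subunit gene of that pump and the most abundant, had 0.16. Per read of Foxi1, the master transcription factor gene of these cells, Aqp6 was 1.87-fold higher (1.65 to 2.12).

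The authors' length-scaled values gave a smaller Aqp6 difference. FPKM per read was 0.733 times as high in the CKO library as in the control library for Aqp6, where the other 8 genes with reads in both libraries lay between 0.998 and 1.06. The FPKM of Aqp6 was 12.5 in the CKO library and 6.02 in the control library, a 2.08-fold difference that fell just under 2-fold once 0.5 was added to both. Levels per transcript were not analysed here.

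The urea transporter genes were low in both libraries and far apart between them. Slc14a2 encodes the UT-A transporters of the inner medullary collecting duct and the descending thin limb. It spans 450807 bases of chromosome 18, from 78146144 to 78596950, next to Slc14a1. The CKO library held 405 reads, 9.51 CPM (8.61 to 10.5), and the control library held 0, with an exact interval up to 0.123 CPM. With the control set at a floor of 3 reads, or 0.0996 CPM, Slc14a2 was 95.5-fold higher in the CKO library. That value leaves out counting error and is not a lower bound at 95%. Thin limb markers were also higher in the CKO library, with values given below, and whether both kidney samples held the same share of inner medulla was not tested.

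A control count of 0 was rare among genes with a similar number of CKO reads. The CKO library held 4077 genes at 203 to 810 reads, and of these 6, Slc14a2 included, had 0 reads and 2 had 1 to 3 reads in the control library. Of all expressed genes, 0.516% were listed at 0 in the control library, 78 genes, and Slc14a2 ranked 4 among them by CKO reads. These genes counted as expressed through the CKO library alone, so that share leaves out most genes without control reads. The control library had reads for 20332 of 45777 genes. Of the genes that overlap Slc14a2, the gene models Gm36418 and Gm6133 had reads in both libraries, 15 and 18 in the CKO library and 10 and 12 in the control library.

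Slc14a1 encodes UT-B, the urea transporter of descending vasa recta, red blood cells and urothelium, and lies on chromosome 18 at 78100091 to 78142119. It had 150 reads in the CKO library and 46 in the control library, or 3.52 CPM (2.98 to 4.13) and 1.53 CPM (1.12 to 2.04). The ratio was 2.31 (1.65 to 3.28), and the log2 ratio on CPM + 0.5 was 0.99, so the gene was not among those counted as 2-fold higher. With 0.1 CPM in place of 0.5 the log2 ratio was 1.15, and with total counts it was 1.25.

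Markers of the cells that make these transporters differed in direction. Thin limb markers were higher, 3 of the 4 expressed ones by 2-fold or more, with a summed level of 123 CPM in the CKO library against 58.6 CPM in the control library. Fst, the follistatin gene, was 22.3-fold higher (13.6 to 39.3) on 505 reads in the CKO library and 16 in the control library, and Bst1 was 13.7-fold higher (9.57 to 20.4). The chaperone gene Cryab, the most abundant, was 2.28-fold higher, and Sptssb had 0 reads in both libraries. Urothelial markers summed to 4.91 CPM in the CKO library and 0.93 CPM in the control library. Psca had 103 reads in the CKO library and Upk3b 43, both with 0 in the control library, while the defining uroplakin genes Upk1b, Upk2 and Upk3a had 0 reads in both. Upk1a, another uroplakin gene, had 35 reads in the CKO library and 25 in the control library, a ratio of 0.990 (0.576 to 1.73), and made up most of the control sum.

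Endothelial markers hardly differed, with 7 genes between -0.45 for Kdr and 0.30 for Egfl7, a median of 0.08, which was the value of Plvap, the most abundant, and sums of 468 CPM in the CKO library and 476 CPM in the control library. Slc14a1 was above all 7. Per read of Pecam1 it was 2.35-fold higher (1.68 to 3.28). Red cell transcripts were lower in the CKO library, with 4 of 5 expressed erythroid markers at least 2-fold lower and sums of 193 CPM in the CKO library and 505 CPM in the control library. Hba-a1, the most abundant, was 2.67-fold lower, although reads of the near-identical alpha globin genes Hba-a1 and Hba-a2 can be split uncertainly. The part of thin limb and urothelial RNA in the urea transporter differences was not tested.

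**Figure D3:**
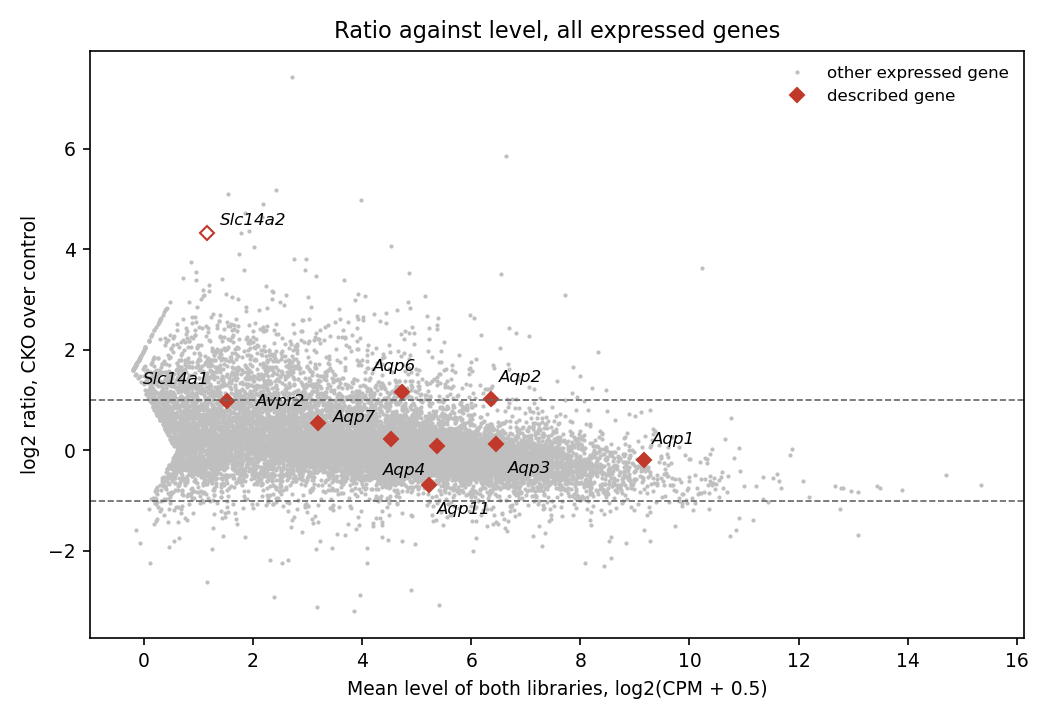
Log2 ratio of CKO over control against the mean log2 level of both libraries for all 15129 expressed genes (grey points) and the 10 described genes (diamonds), with dashed lines at 2-fold. Aqp1 is the most abundant of the 10 and lies just below 0, and Slc14a2, drawn open at a fitted value because its control count is 0, stands far above the cloud.

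Levels can be compared between genes once length is taken into account, for which the authors' deposited TPM values were used. Aqp1 came first in both libraries, with 435 TPM in the CKO library and 372 TPM in the control library. Aqp2 came second in the CKO library, at 185 TPM, ahead of Aqp3 at 116 TPM. In the control library the order was reversed, with Aqp2 at 67.4 TPM and Aqp3 at 79.5 TPM. Aqp11 followed in both libraries, at 49.0 TPM in the CKO library and 59.5 TPM in the control library.

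Lower down, Aqp6 had 28.7 TPM in the CKO library and 12.8 TPM in the control library, Aqp7 had 23.0 and 14.2 TPM, and Aqp4 had 18.4 and 12.8 TPM. In the control library Aqp4 and Aqp6 were level at this precision. Avpr2 had 12.3 TPM in the CKO library and 6.17 TPM in the control library. The urea transporter genes came last, Slc14a2 with 7.42 TPM in the CKO library and 0 in the control library and Slc14a1 with 2.13 TPM in the CKO library and 0.650 TPM in the control library. All TPM levels carry a shift, since the median log2 ratio of all expressed genes was 0.40 on this scale.

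The make-up of the aquaporin transcripts, which no shift between the libraries touches, differed mainly in Aqp1 and Aqp2. Aqp1 made up 50.9% of the summed TPM of the 7 aquaporin genes in the CKO library and 60.2% in the control library. Aqp2 made up 21.6% in the CKO library and 10.9% in the control library. Of the summed reads, without regard to length, Aqp2 took 13.3% in the CKO library and 6.48% in the control library. Aqp11 had 5.73% in the CKO library and 9.62% in the control library, and Aqp3 had 13.5% and 12.8%. Aqp6 had 3.36% in the CKO library and 2.07% in the control library. Aqp7 and Aqp4 took 2.68% and 2.15% in the CKO library and 2.30% and 2.08% in the control library.

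**Figure D4:**
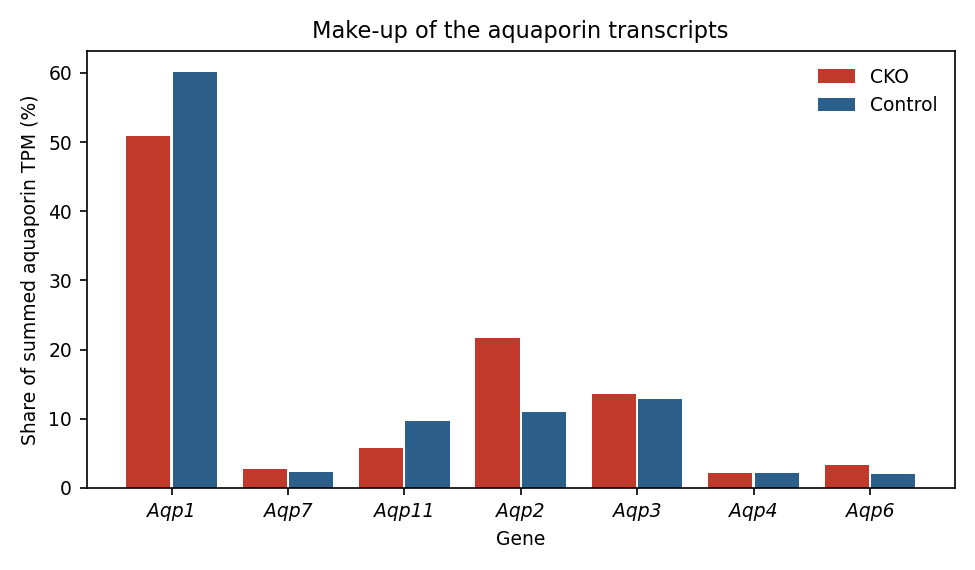
Share of each aquaporin gene in the summed TPM of the 7 described aquaporins, in percent, with the CKO library left of the control library. The Aqp2 bar stands at 21.6% in the CKO library and 10.9% in the control library, while the Aqp1 bar stands at 50.9% and 60.2%.

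Of the other 5 aquaporin genes, none reached 1 CPM. Aqp5, Aqp12 and Mip had 0 reads in both libraries. Aqp8 had 32 reads in the CKO library and 20 in the control library, and Aqp9 had 10 and 2, a ratio of 3.54 with an interval that included 1 (0.753 to 33.2). Aqp5 lies between Aqp2 and Aqp6, 6.48 kb from Aqp2 and 3.64 kb from Aqp6, so a gene with no read lies between Aqp2 and Aqp6, both of which were at least 2-fold higher.

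The genes that carry the vasopressin signal to AQP2 were mostly near 0 in whole-kidney RNA, which does not show their level in principal cells alone. Of 17 genes from receptor relatives to cAMP breakdown, 2 passed the 2-fold limit upward and none downward, and the median was 0.12. Over all expressed genes the shares past that limit were 10.3% upward and 1.66% downward, the background for each list below as well. Prkar2b, a regulatory subunit of protein kinase A, was 3.14-fold higher (2.37 to 4.20). Oxtr, the receptor of the related hormone oxytocin, had 49 reads in the CKO library and 0 in the control library. With the control set at the floor of 3 reads it was 11.5-fold higher, a value that leaves out counting error. Pde3b, a phosphodiesterase that breaks down cAMP, had 0.80, and Arrb2, an arrestin that ends receptor signalling, had 0.62. Gnas, the stimulatory G protein gene and the most abundant, had -0.21.

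Genes of AQP2 vesicle traffic had a median nearer 0 but a wider range, -0.83 to 1.89 against -0.21 to 1.72 for the signalling genes, whose upper end is the fitted value of Oxtr. Of 22 genes, 1 passed the limit upward and none downward, with a median of -0.03 that turned positive in 4 of 11 alternatives. These values too are of the whole kidney and not of principal cells alone. The higher one was Anxa2, an annexin, at 3.75-fold (3.48 to 4.04), on 4457 reads in the CKO library and 840 in the control library. Mal, an apical membrane protein gene, followed at 0.95. Hspa8, a chaperone that binds AQP2 and the most abundant of the list, was 1.78-fold lower, at 1241 CPM in the CKO library and 2209 CPM in the control library.

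Transcription factor genes of the collecting duct had a higher median than the signalling genes. Of 11 genes, 10 were expressed, 4 passed the limit upward and none downward, and the median was 0.67. The 4 were Elf5, the principal cell factor, at 6.86-fold (3.57 to 14.8) on 97 reads in the CKO library and 10 in the control library, and the epithelial factors Grhl2 at 2.86-fold, Elf3 at 2.44-fold and Ehf at 2.37-fold. Nfat5, the tonicity-responsive factor and the most abundant, was 1.58-fold higher (1.52 to 1.64), at 207 CPM in the CKO library and 131 CPM in the control library. Foxa1 had 2 reads in the CKO library and 0 in the control library. Injury markers were higher in the same library, and their part in these values was not tested. The part of the share of inner medulla in each sample was not tested either.

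Genes that cells switch on in salty surroundings differed in both directions. Of 7 tonicity response genes, 1 was at least 2-fold higher and 2 were at least 2-fold lower, with a median of 0.25 that became -0.17 with a minimum of 10 CPM. Slc6a12, a betaine transporter gene, was 8.18-fold higher (3.8 to 21.0) on 81 reads in the CKO library and 7 in the control library. The taurine transporter gene Slc6a6, the most abundant, was 1.60-fold higher. The heat shock genes Hspa1a and Hspa1b were 3.36-fold and 3.07-fold lower, and as near-identical copies they can share reads. How far the share of inner medulla in each sample enters these values was not tested.

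Genes of enzymes that act on glycerol, which AQP7 and AQP3 carry, or on glycerol phosphate were lower on balance. None of the 4 genes passed 2-fold in either direction, 3 were below 0 and the median was -0.61. Gk, the glycerol kinase gene, was 1.71-fold lower, Gpd1, the most abundant, was 1.60-fold lower, and Gpd1l had 0.12. Aqp7 and Aqp3, at 0.23 and 0.12, were above all of these but were close to Gpd1l.

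**Figure D5:**
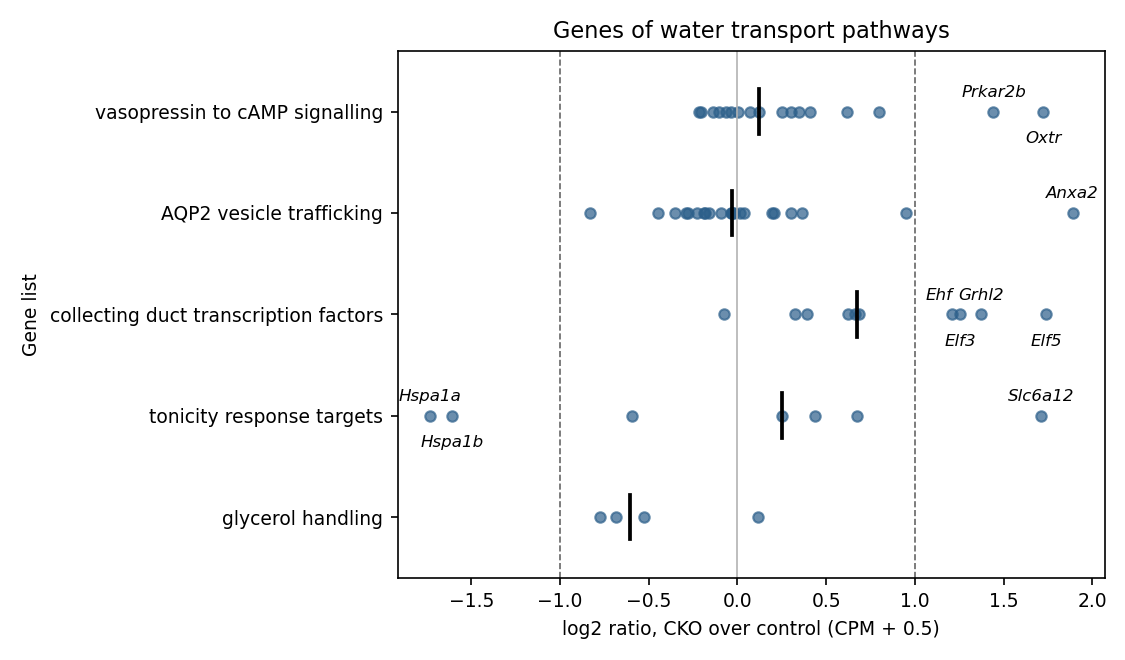
Log2 ratio of CKO over control for each expressed gene (circles) of 5 pathway lists, with the list median as a black bar and dashed lines at 2-fold. Trafficking and signalling genes cluster around 0, with medians of -0.03 and 0.12, while the transcription factors lie mostly right of it, with a median of 0.67.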

How the data were processed

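Whole-kidney RNA-seq libraries, 1 CKO and 1 control, were analysed from tables that the authors deposited. The mm10 build, Cufflinks 2.2.1 and STAR 2.7.3a are listed, per the submitters' processing notes, along with edgeR, FastQC, HTSeq and DESeq2, with no role or order. Read counts per gene are whole numbers that the authors did not normalize, per the file headers and the values. FPKM values, per the file headers, are scaled by length and depth, and the deposited TPM values to a fixed sum. A deposited table of normalized signal holds the count divided by 42.6 for CKO and 30.1 for control, for 19550 genes.

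Counts were scaled by TMM (edgeR 4.0.16, R 4.3.3) on all genes that had any read, so that 1 CPM stood for 42.6 reads in CKO and 30.1 in control. At this precision these are the divisors of the authors' normalized table, so that alternative repeats the same scaling. An expressed gene had at least 1 CPM in CKO, control or both. Log2 ratios use a pseudocount of 0.5 CPM, which understates the ratio of low genes. Intervals are exact Poisson for levels and Clopper-Pearson for ratios, at 95%, while quotients of read ratios have normal intervals on the log scale. The floor is 3 reads. Other steps used scipy 1.17.1, pandas 2.3.3, numpy 2.4.6, matplotlib 3.10.9 and Python 3.11.15, and were tested on simulated data. Coordinates are those of RefSeq on GRCm38, the assembly that mm10 names, where 45679 of 45777 genes were found through their NCBI identifier.

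The 10 genes and the 19 gene lists were chosen with earlier results of these data known. Named are all 10 genes and, of each list, 2 to 4 genes with the largest ratio and the most abundant one, with both nearest expressed neighbours of each gene, while genes at the ends of a list's range, genes used as the denominator of a read ratio and genes that overlap the 10 were chosen after their values were seen. DESeq2 1.42.0 gave alternative size factors. The value of 1 marker gene is not reported here.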

Additional observations from a re-analysis of the deposited data

How the results depend on the processing

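The median log2 ratio of the 10 genes, 0.39, became 0.69 with total counts, 0.81 with the authors' TPM and 0.67 with their FPKM, scales on which the median of all expressed genes moved to 0.32, 0.40 and 0.28. It lay between 0.34 and 0.58 under the other 5 alternatives. Between 2 and 4 genes were at least 2-fold higher under each alternative, since Slc14a1 lies at the limit, Aqp6 falls just short with FPKM, and Slc14a2 is not in the authors' normalized table or above 10 CPM. None was at least 2-fold lower, but 1 gene, Aqp11, was lower at 1.5-fold. Total counts moved the share of higher genes among all those past 2-fold to 95.9%, TPM to 96.5%, against 86.1% with TMM, and a minimum of 10 CPM to 75.9%. The log2 ratio of Slc14a2 with the control set at the floor of 3 reads stayed between 6.56 and 6.89. Relative to the median of all expressed genes, the other 9 genes kept their sign in every alternative that held them. Subtracting the median largely removes a change of scale, so the alternatives that only rescale are no separate check. The Aqp1 share differed by -9.28 percentage points with TPM and by -8.83 with read counts, the Aqp2 share by 10.7 and 6.81, the Aqp11 share by -3.89 and -2.06 and the Aqp6 share by 1.28 and 2.52, so that Aqp2 differed most with TPM and Aqp1 with reads. Setting each gene against its segment's markers was added after seeing the data. The urothelial median of 2.07 ran from 0.76 with no minimum to 4.06 with a pseudocount of 0.1 CPM, and was 3.97 with genes at 0 in the control library set at that floor. No paired analysis was possible because each group has 1 library, and for the same reason no replicate could be left out. Of the 9 genes with reads in both libraries, Slc14a1, with 46 control reads, is the one that depth limits most.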

Other observations

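Of the nearest expressed genes on either side of the described ones, 4 had log2 ratios beyond those of the rest, which lay between -0.48 for Bcdin3d, beside Aqp2, and 0.21 for Gm10036, beside Aqp4. Racgap1, a cell division gene 15.02 kb beyond Aqp6, had 293 reads in the CKO library and 57 in the control library, a log2 ratio of 1.62. Ghrhr, the receptor gene of growth hormone-releasing hormone 27.7 kb beyond Aqp1, had 73 reads in the CKO library and 6 in the control library. L1cam, a cell adhesion gene beside Avpr2, had 2225 reads in the CKO library and 773 in the control library, a log2 ratio of 1.01, and Kctd1, beside Aqp4, had 0.77. The others were Gm38819 at 0.03, Naa10 at -0.02, Nfx1 at -0.05, Setbp1 at -0.08, Epg5 at -0.17, Clns1a at -0.18, Pak1 at -0.22 and Nol6 at -0.24.

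Markers of the distal convoluted tubule, a segment upstream of the collecting duct, were split, with sums of 393 CPM in the CKO library and 387 CPM in the control library. Slc12a3, the thiazide-sensitive salt transporter gene and the most abundant, had a log2 ratio of 0.30 and the magnesium channel gene Trpm6 0.42. The calcium-binding protein genes Calb1 and Pvalb had -0.67 and -0.61. In the thick ascending limb list, Cldn19 had 0.77, Umod, the uromodulin gene and the most abundant, 0.65, and Egf -0.69.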
